A study of Homo sapiens with 2 samples.

Results

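The data describe 8 tetraspanin genes in a human lymphoblastoid cell line: CD9, CD37, CD53, CD63, CD81, CD82, CD151 and TSPAN3. Their probe sets were those whose platform annotation names 1 gene symbol and that symbol is 1 of the 8, which gave 11 probe sets of the 36289 with values, and 8 genes of the 16692 measured. Lymphoblastoid lines are B cells made to grow without limit by Epstein-Barr virus (EBV). The labels hold 1 group with 2 replicates and name no treatment, and write the line as GM06690 in the titles and as GM06990 in the growth protocol. The cells were grown in RPMI1640 with fetal calf serum, and total RNA of each replicate was read on 1 Affymetrix U133 Plus 2.0 array. Whether the replicates were separate cultures is not given in the labels, and their spread may therefore be technical. There is a single group, so no conditions were compared and no test was run.

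Tetraspanins are small proteins that cross the membrane several times and carry a large outer loop held together by cysteines. They bind few ligands themselves. They gather integrins, immunoglobulin-like receptors, MHC molecules and signalling enzymes into shared membrane domains, and some of them travel to endosomes and to the vesicles that cells release. In B cells, CD37 and CD53 are tetraspanins largely restricted to leukocytes, CD81 belongs to the co-receptor complex of the B-cell receptor, and CD63 marks late endosomes, lysosomes and released vesicles.

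RefSeq (GRCh38.p14) gave start-site windows for 4 of the 8 genes: CD9, CD53, CD63 and CD82. The 250 bases before a start are shown for both CD53 starts, whose windows are poor in CpG, for the CD63 start whose window holds the most CpG of the 8 listed, and for the CD82 start, whose window is rich in it. Capitals mark matches, on either strand, to the PU.1 core GAGGAA, the GC box GGGCGG, the E box CACGTG and the TATA box TATAAA. The first CD53 start lies after chr1:110870960-110871209 (plus strand), the second after chr1:110872898-110873147 (plus strand), the first listed CD63 start, in the direction of transcription, after chr12:55729010-55729259 (minus strand) and the CD82 start after chr11:44565413-44565662 (plus strand).
CD53 first start: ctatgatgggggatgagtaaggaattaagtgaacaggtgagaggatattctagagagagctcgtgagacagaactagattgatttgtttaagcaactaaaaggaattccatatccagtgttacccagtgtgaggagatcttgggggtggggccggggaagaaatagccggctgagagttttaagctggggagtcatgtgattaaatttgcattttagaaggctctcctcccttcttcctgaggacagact
CD53 second start: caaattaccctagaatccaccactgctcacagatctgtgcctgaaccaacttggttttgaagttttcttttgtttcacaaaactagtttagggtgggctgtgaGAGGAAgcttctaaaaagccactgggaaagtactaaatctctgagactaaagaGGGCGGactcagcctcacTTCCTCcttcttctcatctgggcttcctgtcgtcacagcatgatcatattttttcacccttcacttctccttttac
CD63 first listed start: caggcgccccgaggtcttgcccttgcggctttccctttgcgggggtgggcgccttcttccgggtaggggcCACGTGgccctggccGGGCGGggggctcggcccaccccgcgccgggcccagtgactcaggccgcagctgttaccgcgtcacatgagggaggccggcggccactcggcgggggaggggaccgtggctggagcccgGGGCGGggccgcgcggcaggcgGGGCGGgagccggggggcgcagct
CD82 start: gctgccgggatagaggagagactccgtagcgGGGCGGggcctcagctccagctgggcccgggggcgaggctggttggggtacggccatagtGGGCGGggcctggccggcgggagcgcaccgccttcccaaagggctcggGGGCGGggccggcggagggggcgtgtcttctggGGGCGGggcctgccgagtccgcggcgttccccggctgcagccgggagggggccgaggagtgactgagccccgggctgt

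The CD53 windows held 3 and 2 CpG, against a median of 11 over 35116 windows of that length in the table, whereas the windows shown held 30 for CD63 and 26 for CD82. The second CD53 window had 2 PU.1 cores and 1 GC box, and the first had none of the motifs. A PU.1 core was present in 23.6% of all windows, a GC box in 42.6%, an E box in 6.34% and a TATA box in 10.7%. The CD63 window shown had 3 GC boxes and 1 E box, and the CD82 window 4 GC boxes. The 4 listed CD9 starts differed among themselves, with 10, 28, 29 and 1 CpG. The other 7 listed CD63 starts held between 4 and 26 CpG, so the gene has windows on both sides of the median. These counts describe letters in the windows. The arrays do not show which start was used.

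Signals are RMA intensities as the authors deposited them, and log2 was taken here. Their medians were 33.2 and 33.3 in replicates 1 and 2, and across probe sets the log2 signals of the arrays had a Pearson correlation of 0.997 (probe sets are not independent replicates). A gene stood above background when its brightest probe set exceeded a level set on each array, the 95th percentile of the signals of 80 reference genes known from liver, brain, muscle and other differentiated tissues. This level was 5.87 on the log2 scale (intensity 58.3) in replicate 1 and 5.84 (intensity 57.1) in replicate 2. A probe set's signal depends on how well its probes bind, so the signals of different genes are not an order of transcript abundance, and no such order is drawn. In a culture measured in bulk, fewer cells with a transcript and less of it per cell cannot be told apart.

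All 8 genes stood above background on both arrays. Over all genes measured, 51.0% did so (8507 of 16692). When the 99th percentile of those reference genes served as the level, 4 of the 8 remained above it (CD37, CD53, CD63 and CD81) and 11.3% of all genes did. That level, 10.49 and 10.56 on the 2 arrays, lay between the signals of KRT10 (11.24) and MBP (10.33), the brightest of the reference genes. CD37 passed it narrowly, with 10.55 and 10.62.

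**Figure D1:**
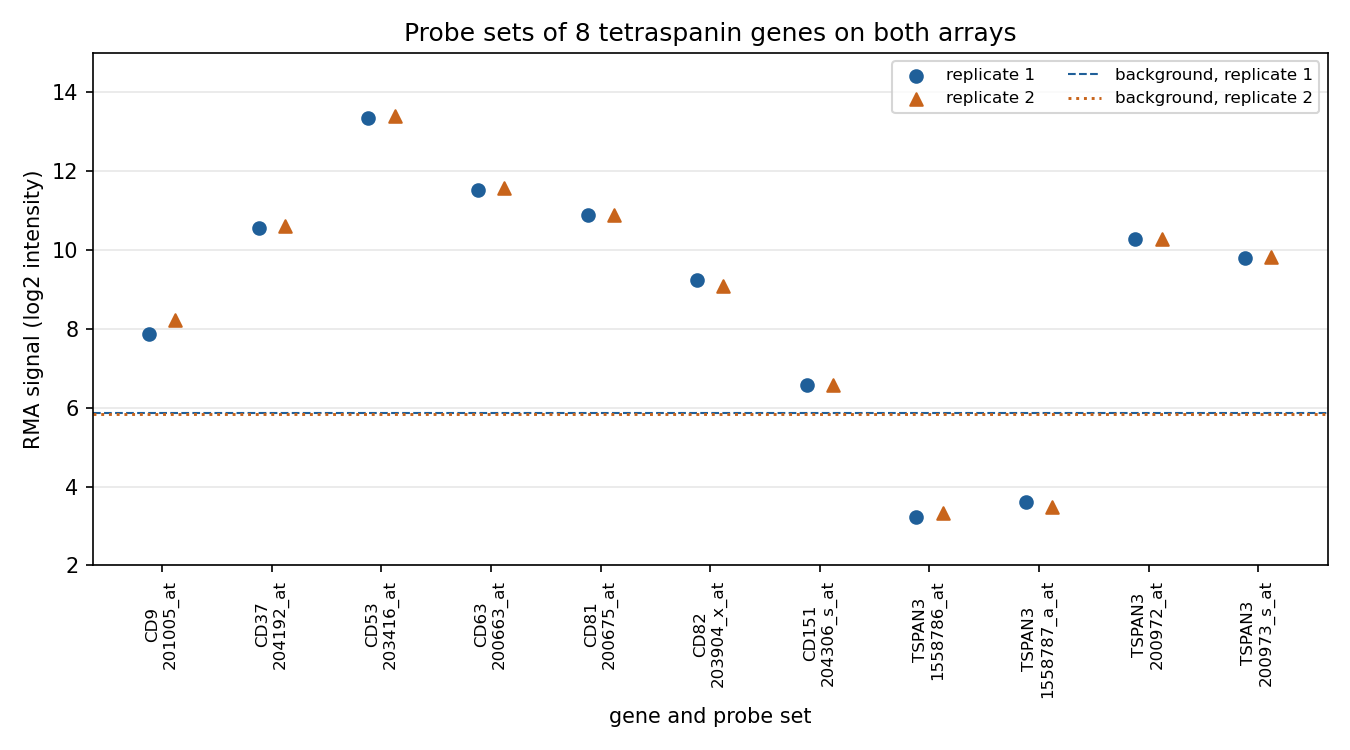
RMA signal (log2 intensity) of each of the 11 probe sets of the 8 tetraspanin genes, with a circle for replicate 1 and a triangle for replicate 2; the lines are the background levels (5.87 and 5.84). Of the 11 probe sets 9 lie above the lines on both arrays, and the 2 below are probe sets of TSPAN3.

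The leukocyte tetraspanins were CD53 and CD37. CD53, which takes part in lymphocyte adhesion and in B-cell receptor signalling, had intensities of 10512 and 10885 in replicates 1 and 2, or 13.38 ± 0.04 on the log2 scale (SD, n = 2). Its probe set, 203416_at, lay 7.49 and 7.57 above the background level on the log2 scale. CD37, which restrains and relays survival signals in mature B cells through its cytoplasmic tails, had intensities of 1496 and 1577 (204192_at), or 10.59 ± 0.05. Both genes were far above the background level on both arrays, and each has 1 probe set in these data.

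CD81 is the tetraspanin of the B-cell co-receptor, which lowers the threshold for activation by antigen coated with complement. Its probe set, 200675_at, read 1914 and 1887, or 10.89 ± 0.01 on the log2 scale. The arrays differed by -0.02 for it (replicate 2 minus replicate 1). Of its co-receptor partners, CR2, the complement receptor CD21, read 2190 and 1964 (11.02 ± 0.11), and IFITM1, also called Leu-13, read 6121 and 6292 (12.60 ± 0.03). The measured genes of this complex thus all stood above background, 3 of 3 with CD81 counted, where 51.0% of all genes did. 1 further gene of the list was not analysed here.

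CD63 carries a sorting signal in its tail that sends it to late endosomes and lysosomes. It read 2954 and 3055 (200663_at), or 11.55 ± 0.03 on the log2 scale. Of 19 measured genes of extracellular vesicles, 16 stood above background (84.2%, against 51.0% of all genes). Among them were SDCBP, which encodes syntenin, an adaptor that binds the tail of CD63 (10.48 ± 0.09), and the endosomal sorting genes TSG101 (10.89 ± 0.05) and HGS (8.46 ± 0.04). The 3 that did not were the secretory GTPase RAB27B (4.04 ± 0.03) and the vesicle-associated glycoproteins LGALS3BP (4.46 ± 0.08) and MFGE8 (5.47 ± 0.19). Without probe sets ending in _x_at and _s_at, 9 of 13 vesicle genes stood above background, against 45.8% of all genes.

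CD82, an activation-induced tetraspanin of lymphocytes also known as a suppressor of metastasis, read 608 and 546, or 9.17 ± 0.11 on the log2 scale. Its probe set, 203904_x_at, holds probes that can also match other transcripts, as the ending _x_at marks, so its value is uncertain in that respect. TSPAN3, a broadly expressed tetraspanin, had 4 probe sets. By 200972_at it read 1234 and 1237 (10.27 on both arrays), and by 200973_s_at 894 and 902 (9.81 ± 0.01). The other 2 were below background on both arrays: 1558786_at read 9.41 and 9.99, and 1558787_a_at read 12.2 and 11.2. The TSPAN3 call therefore rests on 2 of its 4 probe sets, and which transcripts the other 2 detect was not tested. Over all probe sets with 1 symbol, 46.2% stood above background, against 9 of the 11 here.

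CD9 and CD151 are best known from platelets, endothelium and epithelium, where they accompany integrins. CD9, which is also found on subsets of B cells and on plasma cells, read 234 and 298 (201005_at), or 8.04 ± 0.25 on the log2 scale. Replicate 2 was higher by 0.35, the largest difference of the 8 genes, and both arrays stayed at least 2.00 above background. CD151, a partner of laminin-binding integrins, read 95.6 and 95.8 (204306_s_at), or 6.58 on both arrays. It lay 0.71 and 0.75 above background on the log2 scale, nearer to the level than any other of the 8. Of the 80 reference genes 4 passed the level as well: KRT10 (11.24), MBP (10.33), SFTPB (6.74) and TNNT3 (6.28). All but TNNT3 had a higher signal than CD151. The probes for CD151 are shared by several transcripts, as _s_at marks, and CD151 has no other probe set here.

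Markers of other cells that carry CD9 and CD151 were measured on the same arrays. None of 8 platelet genes stood above background, where 51.0% of all genes did, and the highest of their log2 signals on either array was 5.25. The first of the list, the platelet integrin chain ITGA2B (4.66 ± 0.15) and the von Willebrand factor receptor chain GP1BA (4.63 ± 0.02), were both below it. The summed intensity of the platelet list was 189 and 190, a sum of 8 signals that each lay below the level. Epithelial genes were above background in 2 of 10 cases, CDH1 (7.01 ± 0.05) and ELF3 (6.93 ± 0.11), each by 1 of 2 probe sets. KRT8 (5.19 on both arrays) and EPCAM (3.88 ± 0.14) stayed below it. Stromal and endothelial genes were above in 1 of 10 cases, COL1A1 (7.24 ± 0.15, by 2 of 5 probe sets), and COL1A2 (5.04 ± 0.08) was not. These counts moved both ways with the setting. With the median of a gene's probe sets, 1 epithelial and 0 stromal and endothelial genes passed, beside 47.5% of all genes. When _x_at and _s_at probe sets were left out, 0 of 5 and 0 of 7 passed, beside 45.8%. At the 99th percentile both counts were 0, beside 11.3%. At the 75th percentile 4 epithelial and 3 stromal and endothelial genes passed, beside 61.7%. With the level taken from 67 olfactory receptor genes 2 of each list passed, beside 56.3%. Leaving MBP and KRT10 out of the reference also gave 2 of each, beside 52.7%. The summed intensities were 429 and 408 for the epithelial list and 358 and 343 for the stromal and endothelial list. These sums too include genes below the level. The part of such cells in the CD9 and CD151 signals was not tested.

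The labelled cell type matched its markers. Of 9 measured B-cell genes 8 stood above background (88.9%, against 51.0% of all genes). Among them were MS4A1, which encodes CD20 (13.19 ± 0.10), and CD79A (11.30 ± 0.03). The exception was CD72 (4.62 ± 0.53). T-cell genes were above background in 0 of 10 cases, with CD3D at 4.94 ± 0.21 and CD3E at 4.49 ± 0.04, and myeloid genes in 0 of 9, with CD14 at 3.77 ± 0.07 and LYZ at 3.72 on both arrays. The myeloid gene S100A9 exceeded the level in replicate 2 alone. With the 75th percentile as the level, 2 T-cell, 2 myeloid and 1 platelet gene passed it, as did 61.7% of all genes.

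The 8 genes differed little between the arrays. No gene of the 8 reached a difference of 1 in log2 units, nor of 0.58. Of 8761 genes that passed the level on either array, 3 (0.0342%) exceeded a difference of 1 and 56 (0.639%) a difference of 0.58. The median absolute difference was 0.0493 over the 8 genes and 0.0688 over all genes above background. Replicate 2 was higher for 6 of the 8, though barely for CD151 and TSPAN3, and replicate 1 for CD81 and CD82. The median of replicate 2 minus replicate 1 was 0.0262 over the 8 genes and -0.0175 over all genes above background.

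Noise depends on signal, so each gene was set beside the probe sets within 0.25 of its own mean signal on the log2 scale. The CD9 difference of 0.35 exceeded the 95th percentile of 0.31 among 1352 such probe sets, of which 53 (3.92%) differed at least as much. The other 7 genes differed by less than the 95th percentile of theirs. For CD82 (-0.16) 15.7% of 1348 probe sets of like signal differed at least as much, and for CD37 (0.08) 33.9% of 871. CD151 and TSPAN3 differed by less than 0.01, a closeness that 98.0% and 96.7% of probe sets of like signal did not reach.

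**Figure D2:**
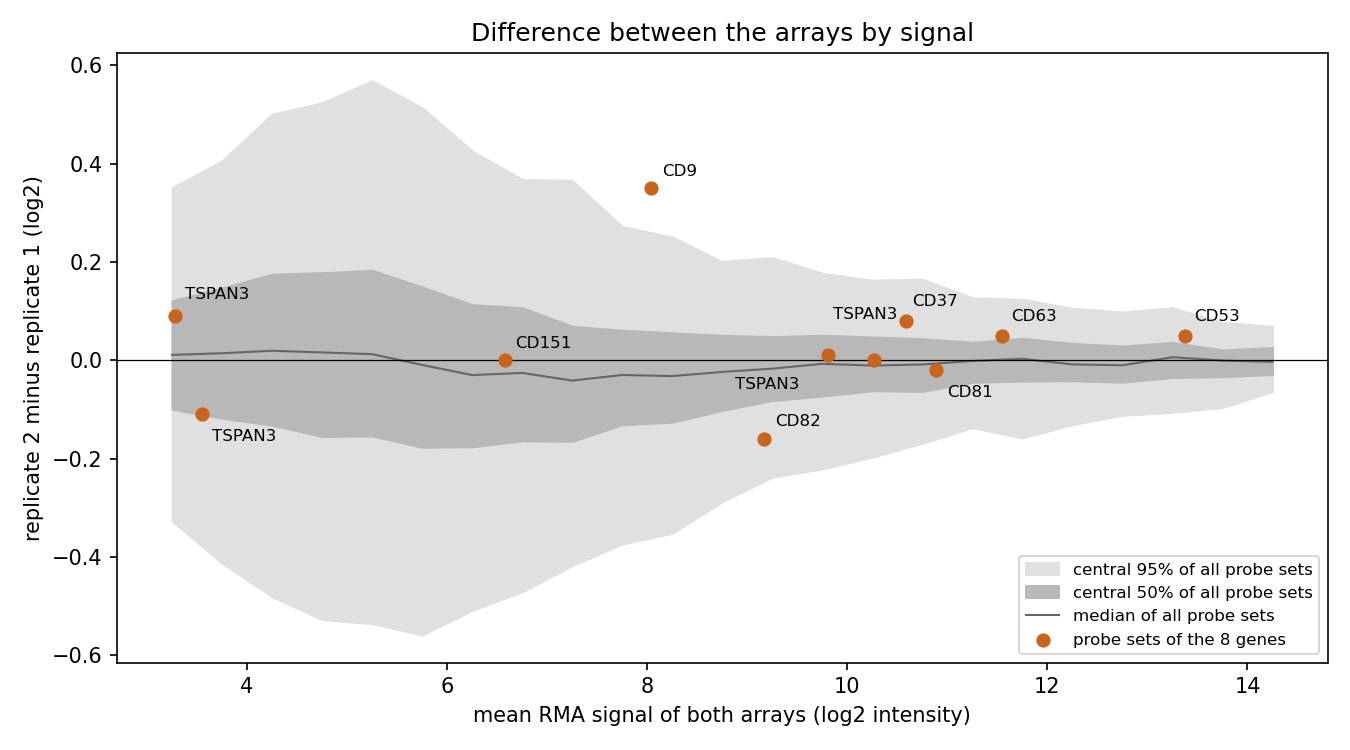
Difference between the arrays (replicate 2 minus replicate 1, log2) against mean signal (log2 intensity); the grey bands hold the central 50% and 95% of all probe sets with 1 symbol, in bins of signal, and the points are the 11 probe sets of the 8 genes. CD9 (0.35) lies above the outer band and the other points lie within it.

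The rest of the family was mostly at background. Of 25 further tetraspanin genes 21 were measured, and 5 stood above background (23.8%, against 51.0% of all genes). The 8 genes described here were chosen as tetraspanins of lymphoid cells with earlier results of these arrays known, so the difference between 8 of 8 and 5 of 21 is a description. Over the 29 measured tetraspanins together, 13 stood above background (44.8%).

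TSPAN33, a tetraspanin known from activated B cells, read 988 and 855 (9.84 ± 0.15 on the log2 scale). TSPAN31, first found in amplified sarcoma DNA, read 935 and 925 (9.86 ± 0.01) by its brighter probe set, and both its probe sets stood above background. TSPAN12, a co-receptor of Norrin signalling in retinal vessels, read 746 and 749 (9.55, SD under 0.01). It was above the level by 3.68 and 3.71 in a B-cell line, by its 1 probe set. TSPAN14 read 161 and 159 (7.32 ± 0.01) and TSPAN17 168 and 197 (7.51 ± 0.16), the latter by 1 of 2 probe sets.

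TSPAN5, TSPAN10, TSPAN14, TSPAN15, TSPAN17 and TSPAN33 form the TspanC8 subgroup, which carries the protease ADAM10 to the cell surface. Of these 6 genes 3 stood above background (50%, close to the 51.0% of all genes): TSPAN14, TSPAN17 and TSPAN33. TSPAN5 (5.19 ± 0.10), TSPAN10 (4.39 ± 0.03) and TSPAN15 (4.42 ± 0.13) did not. ADAM10 itself read 2046 and 1966 (10.97 ± 0.04), with its 3 probe sets above background.

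The 16 further tetraspanins not above background had mean signals from 3.19 to 5.73. The highest were TSPAN4 (5.73 ± 0.23), which exceeded the level in replicate 1 alone, and TSPAN32, a blood-cell tetraspanin (5.65 ± 0.03), and these 2 lay less than 0.5 below the level. The photoreceptor tetraspanins PRPH2 (4.16 ± 0.28) and ROM1 (4.16 ± 0.09) and the urothelial UPK1A (4.10, SD under 0.01) and UPK1B (4.44 ± 0.15) were well below it. Also below the level were TSPAN1 (4.93 ± 0.01), TSPAN2 (3.19 ± 0.06), TSPAN6 (4.33 ± 0.09), TSPAN7 (5.05 ± 0.15), TSPAN8 (3.55 ± 0.16), TSPAN9 (5.03 ± 0.05) and TSPAN13 (3.59 ± 0.30). Of these, TSPAN1, TSPAN7 and TSPAN9 passed when the level was set at the 75th percentile. The family count moved with the level: it was 11 of 21 when the 75th percentile of the reference genes was used, 8 with the level taken from 67 olfactory receptor genes and 0 with the 99th percentile. The share of all genes moved as well, to 61.7%, 56.3% and 11.3% at these levels.

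**Figure D3:**
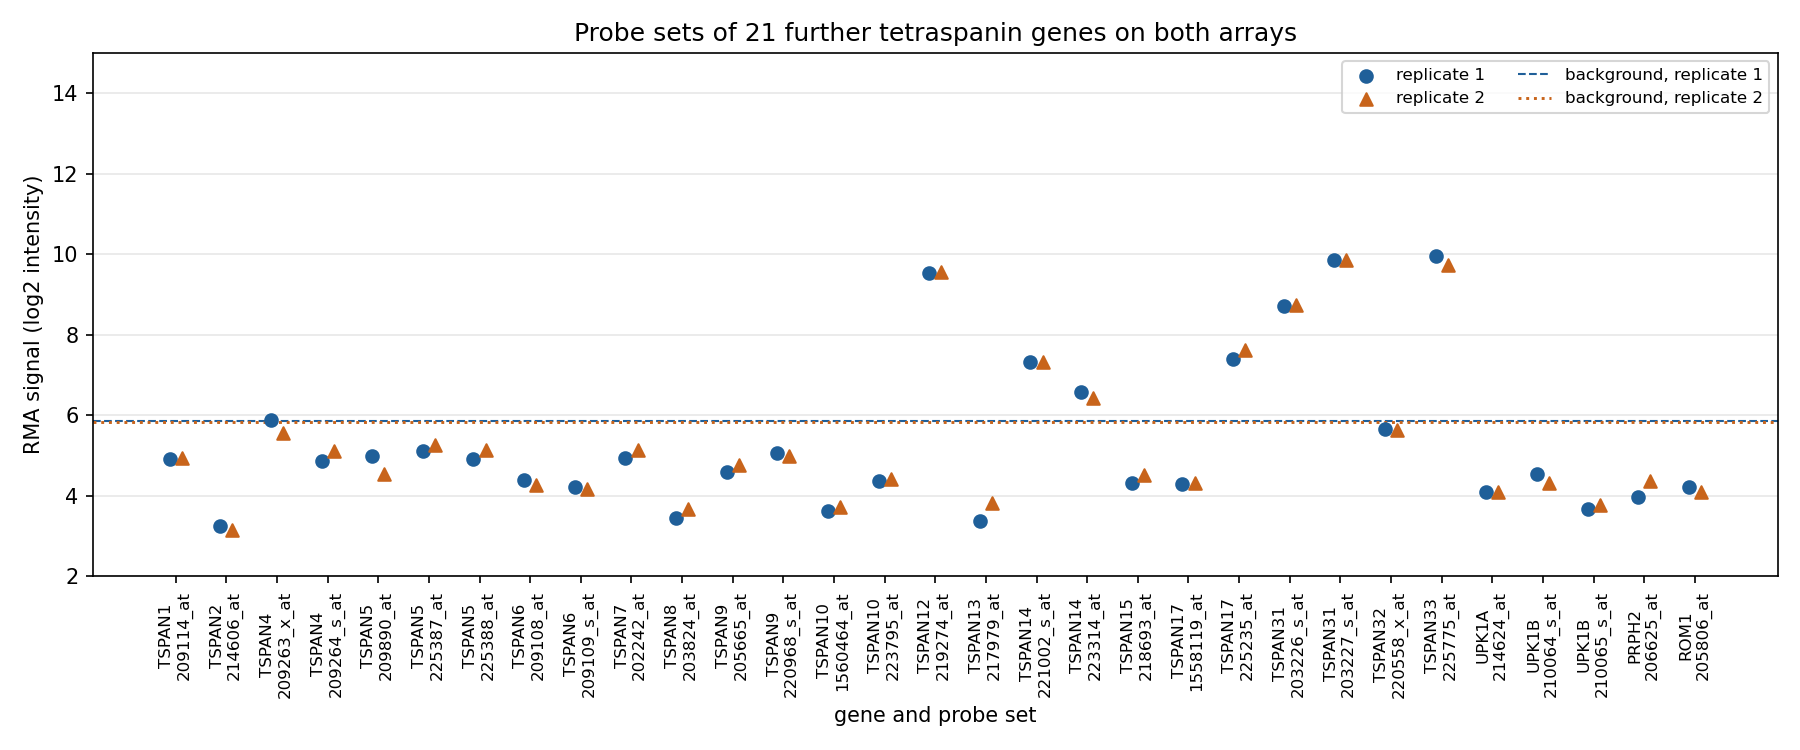
RMA signal (log2 intensity) of each probe set of the 21 further tetraspanin genes measured, with a circle for replicate 1 and a triangle for replicate 2; the lines are the background levels (5.87 and 5.84). TSPAN12, TSPAN14, TSPAN17, TSPAN31 and TSPAN33 have probe sets above both lines, and most others lie below.

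Proteins known to bind tetraspanins or to sit in their domains, and the genes of extracellular vesicles, were followed through 5 lists. These lists held 72 distinct measured genes. Of the 72, 51 genes stood above background, a larger share than the 51.0% of all genes. In the integrin list 5 of 10 did so (50%), close to the share of all genes. These were ITGB1 (9.83 ± 0.02, by 3 of 7 probe sets) and ITGA4 (10.89 ± 0.02), which pair as VLA-4, and the leukocyte chains ITGB7 (10.23 ± 0.01), ITGAL (9.25 ± 0.17) and ITGB2 (9.88 ± 0.02). The laminin-receptor chains that CD151 is best known to bind, ITGA3 (5.29 ± 0.10), ITGA6 (3.59 ± 0.03), ITGA7 (4.98 ± 0.09) and ITGB4 (4.19 ± 0.05), were not above background, nor was ITGA5 (4.81 ± 0.09). With the 75th percentile as the level, the integrin count was 8 of 10, while 61.7% of all genes stood above it. With the median of a gene's probe sets the count was 4 of 10, beside 47.5% of all genes.

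Of the immunoglobulin-like partners 4 of 8 stood above background (50%, close to the 51.0% of all genes). IGSF8, also called EWI-2, a direct partner of CD9 and CD81, did not (4.95 ± 0.17), whereas its relatives PTGFRN (6.41 ± 0.17) and IGSF3 (6.23 ± 0.25, by 1 of 4 probe sets) did. The T-cell partners CD4 (5.29 ± 0.32), CD8A (3.90 ± 0.13) and CD2 (3.90 ± 0.09) were not above it. Without _x_at and _s_at probe sets, 2 of the 6 genes left stood above background, against 45.8% of all genes.

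Other surface partners were above background in 13 of 20 cases (65%, against 51.0% of all genes). Among them were the class II genes HLA-DRA (14.23 ± 0.03), HLA-DRB1 (12.40 ± 0.02) and HLA-DPA1 (13.86 ± 0.01). HLA-DRB1 has near-identical relatives that can share its probes. HBEGF, the growth factor precursor that CD9 accompanies, was not above on both arrays (5.82 ± 0.16), exceeding the level in replicate 1 alone. Nor were EPCAM, CLDN1 (4.35 ± 0.07), KIT (4.42 ± 0.10) or EGFR (5.17 ± 0.25). Among all 72 partner and vesicle genes DPP4, named after its value was seen, differed most between the arrays (0.61, from 63.9 to 97.7).

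Inside the cell, 14 of 16 partners stood above background (87.5%, against 51.0% of all genes). They included the protein kinase C genes PRKCB (10.95 ± 0.13) and PRKCD (9.41 ± 0.03), and PI4K2A, a lipid kinase that binds several tetraspanins (7.92 ± 0.10). PRKCA (5.46 ± 0.16) and SOCS3 (5.11 ± 0.02), an inhibitor of cytokine signalling that CD37 can engage, were not above background.

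**Figure D4:**
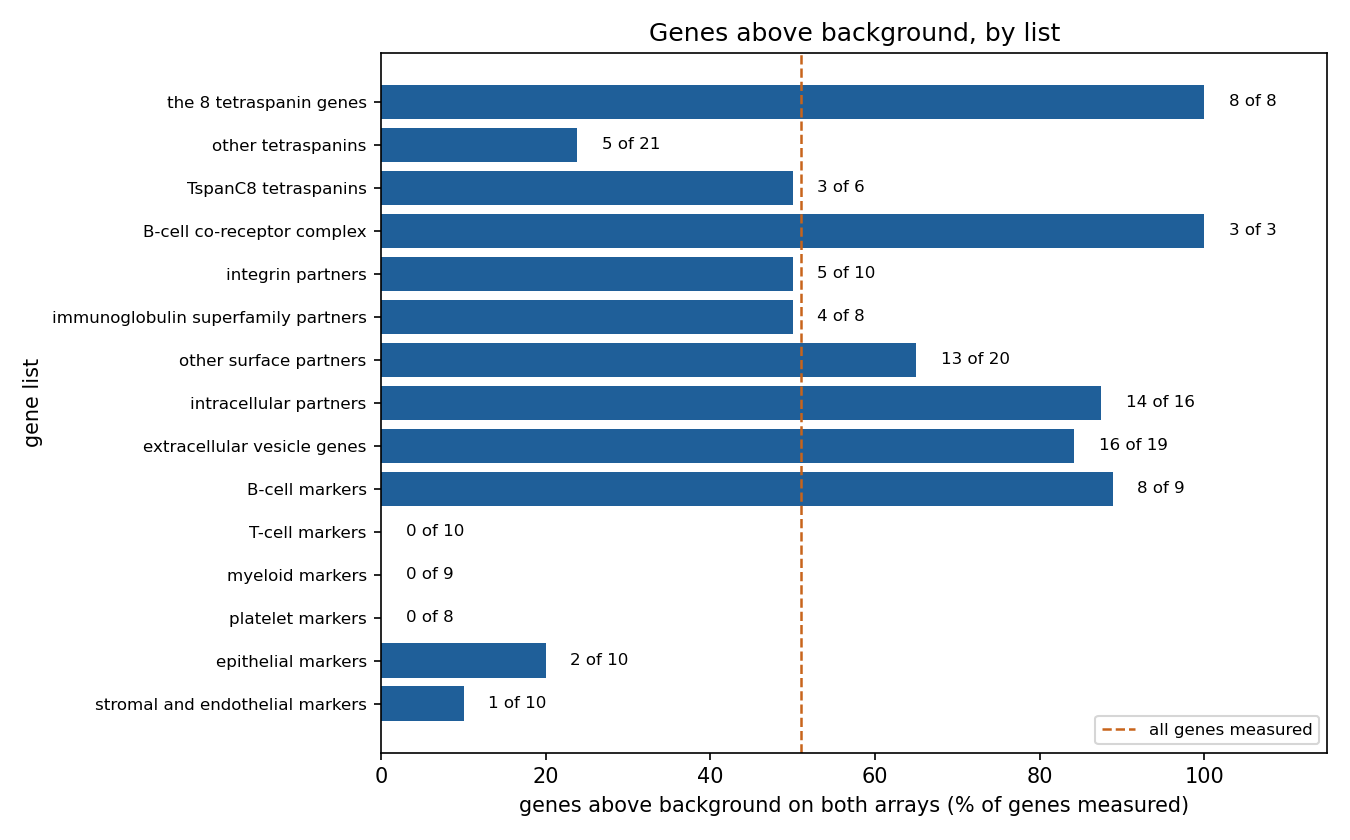
Percent of the measured genes of each list above background on both arrays, with the counts beside the bars; the dashed line is the share over all genes (51.0%). The 8 tetraspanin genes stand at 8 of 8, the further tetraspanins at 5 of 21, and the T-cell, myeloid and platelet lists at 0.

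The 8 genes lie on chromosomes 1, 11, 12, 15 and 19, with CD81, CD82 and CD151 on chromosome 11 and CD9 and CD63 on chromosome 12. Of the nearest measured gene on either side of each, 8 of 16 stood above background, close to the 51.0% of all genes. Both neighbours were above it for CD53 (KCNA3, 5.97 ± 0.11, and LRIF1, 8.84 ± 0.01), CD63 (BLOC1S1, 10.10, SD under 0.01, and GDF11, 6.36 ± 0.11, by 2 of 5 probe sets) and TSPAN3 (PSTPIP1, 6.05 ± 0.26, and PEAK1, 7.14 ± 0.08, by 1 of 2 probe sets). Neither was for CD9 (VWF, 4.13 ± 0.12, and PLEKHG6, 4.37 ± 0.02), CD37 (SLC6A16, 4.60 ± 0.24, and TEAD2, 4.45 ± 0.09) or CD82 (ALX4, 3.82 ± 0.02, and TP53I11, 4.54 ± 0.17). Among the neighbours above, KCNA3 passed narrowly in replicate 1 (5.89 against the level of 5.87) and PSTPIP1 in replicate 2 (5.87 against 5.84). CD37 overlaps both of its neighbours in the annotation, and stood above background while SLC6A16 and TEAD2 did not.

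CD81 and CD151 had 1 neighbour each above background. For CD81 this was TSSC4 (6.96 ± 0.06) and not CD81-AS1, the antisense transcript that overlaps it (3.95 ± 0.24). For CD151 it was POLR2L, a subunit of the RNA polymerases (12.24 ± 0.01), and not PNPLA2 (4.80 ± 0.04). Both genes also lie beside a relative. No protein-coding gene separates CD81 from TSPAN32, and 1 separates CD151 from TSPAN4, and neither relative stood above background on both arrays. CD82 likewise lies beside a relative, TSPAN18, with no protein-coding gene between them, but TSPAN18 was not measured here.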

How the data were processed

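Signals of 2 arrays of 1 cell line were analysed. The authors deposited RMA intensities, 1 per probe set and array, on a linear scale. RMA is named in the submitters' processing notes; its software and version are not given in the sources used here. It equalises the distributions of the arrays (here the sorted log2 values differed by at most 0.137), so a change in total RNA cannot be seen. Of 36289 probe sets, 29493 had 1 symbol, 1407 several and 5389 none; 29461 were matched by Entrez ID to RefSeq symbols (GRCh38.p14) and used.

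Where a gene had several probe sets, the brightest by mean log2 signal stood for it. Values are means ± SD of 2 arrays. No test was run, and the number of arrays limits the precision. Sequence windows came from RefSeq, and protein sequences were not used here. The code was tested on simulated data. Python 3.11.15, numpy 2.4.6, pandas 2.3.3 and statsmodels 0.14.6 were used.

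The genes and lists were chosen with earlier results of these data known. Named were the 8 genes, all measured further tetraspanins and co-receptor genes, and the nearest measured neighbours. Of each partner or vesicle list the first 3 genes were named, with up to 5 not above background. Of each list of other cell types the first 2 genes were named, with those above background. Exceptions to this rule (ADAM10, DPP4, PI4K2A, ITGB7, ITGAL, ITGB2, S100A9, MS4A1, CD79A, CD72, KRT10, MBP, SFTPB and TNNT3) were named after their values were seen. Alternatives tried were other background levels, other summaries of a gene's probe sets, other scalings and each array alone.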

Additional observations from a re-analysis of the deposited data

How the results depend on the processing

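The count of 8 genes above background was the same when the level was the 75th percentile of the reference signals, with the level from olfactory receptor genes, with the median of a gene's probe sets, on each array alone, and without MBP and KRT10 in the reference, a setting chosen after seeing the data. Without _x_at and _s_at probe sets CD82 and CD151 were not measured and the other 6 stood above background. The 99th percentile is a level near 10.5, between the signals of MBP and KRT10. At it the share of all genes fell from 51.0% to 11.3%. The counts there were 4 of the 8 genes, 4 of their 11 probe sets, 0 of 21 further tetraspanins and 1 of 16 neighbours. Of the 72 partner and vesicle genes 25 passed (integrins 1, immunoglobulin-like 0, other surface 10, intracellular 7, vesicle genes 7). At the 75th percentile the counts were 11 further tetraspanins and 8 integrins, beside 61.7% of all genes. With the olfactory receptor level 8 further tetraspanins passed, beside 56.3% of all genes. Without _x_at and _s_at probe sets, which leaves fewer genes to measure, the counts were 2 of 6 immunoglobulin-like and 9 of 13 vesicle genes, beside 45.8% of all genes. The median absolute difference of the 8 genes between the arrays was 0.05 under each scaling tried, and none differed by more than 0.58. CD9 differed by 0.35 to 0.38 under these scalings, and CD151 by up to 0.03. Among the values of single genes and of the other lists, 60 stayed close to those reported and 28 moved. The sign of the TSPAN3 difference turned with the median of its probe sets (-0.05). No paired analysis was possible because there is 1 group.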
